A study of Mus musculus with 22 samples.

Results

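The genes described here are the nuclear-encoded subunits of the 5 complexes of oxidative phosphorylation in mouse embryonic stem (ES) cells. They are the protein-coding genes whose symbols begin with Nduf (the a, b, c, s and v series), Uqcr, Cox4 to Cox8 or Atp5, together with Sdha, Sdhb, Sdhc and Sdhd, without Ndufa4l2. The rule used names only and no measured value. It found 83 of the 47729 genes in the deposited count tables, with 36 genes for complex I, 4 for complex II, 8 for complex III, 18 for complex IV and 17 for complex V. Another 10 names that matched were pseudogenes and were left out.

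The study asked what the multi-copy Dux cluster does in E14 mouse ES cells. Dux encodes a transcription factor of the 2-cell embryo, and the cluster was edited with CRISPR-Cas9 either away (Dux-KO) or down to a single copy (Dux n=1). All cells were grown with serum and LIF, and 22 RNA-seq libraries were analysed. The untreated set held 3 E14 libraries, 3 Dux-KO clones (15, 22 and 52) and 4 Dux n=1 clones (17, 22, 31 and 40), 1 library each. The treated set held 12 libraries: wild type (WT), Dux-KO clone 22 (KO22) and Dux n=1 clone 22 (N22), each given DMSO or GSK-3484862 (GSK) for 3 days, 2 libraries per condition. GSK-3484862 leads to the loss of DNMT1, the enzyme that copies DNA methylation to newly made DNA. The sources used here give different doses for it. KO22 and N22 are 1 clone each, so a difference from WT belongs to that clone. No label says that libraries 1 and 2 of a condition came from separate cultures, so a p-value reflects the spread of these libraries alone, which may be technical.

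Complexes I and II pass electrons from NADH and succinate to ubiquinone, complex III passes them on to cytochrome c, and complex IV hands them to oxygen. Complexes I, III and IV pump protons out of the matrix, and complex V, the ATP synthase, uses the returning protons to make ATP. Complex II is encoded wholly in the nucleus, whereas the other complexes also hold subunits encoded in mitochondrial DNA. ES cells make much of their ATP by glycolysis and keep a working respiratory chain. Several complex IV subunits exist as a common form and a form restricted to testis, muscle or lung.

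Several facts of the libraries touch the results below. Totals ran from 15803194 to 19427794 counts. Markers of ES cells summed to 4947 to 5101 CPM (counts scaled to a common library total) in the 6 GSK libraries and to 5425 to 7458 CPM in the others. Of the 8 fibroblast markers, which would mark feeder cells, S100a4 had 0 counts in every library, Col3a1, Dcn, Lum and Postn at most 7 and Col1a2 0 to 22, whereas Col1a1 had 8 to 116 and Thy1 150 to 971. The markers summed to 9.21 to 10.7 CPM in E14, 21.04 to 53.7 in Dux-KO, 13.8 to 29.6 in Dux n=1, 19.1 to 42.1 with DMSO and 21.5 to 38.3 with GSK. With GSK, 2 of the 3 tested were higher in each genotype and 0, 1 and 1 lower (WT, KO22, N22), and against E14 2 of 2 were higher in Dux-KO and 1 of 2 in Dux n=1; their part in the results was not tested. Duxf3, the gene model of Dux, had 0 counts in all 4 KO22 libraries, 1 and 1 in WT with DMSO, 19 and 18 in WT with GSK, 3 and 0 in N22 with DMSO, and 13 and 11 in N22 with GSK. In the untreated set it had 0 or 1 counts in E14, 0, 5 and 1 in Dux-KO clones 15, 22 and 52, and 0 to 3 in Dux n=1, too few to check the labels. Chromosome 6 took 5.01% to 5.04% of counts in all 4 KO22 libraries, 5.10% in Dux-KO 15, 5.11% in Dux-KO 52 and 4.96% in Dux n=1 40, against 3.71% to 4.09% in the other libraries. Untreated Dux-KO 22, which carries the same clone number as KO22, was at 3.75%. In this share Dux-KO 22 and Dux n=1 40 stood apart from the rest of their groups, and Dux-KO 22 was also the Dux-KO clone with 5 counts of Duxf3; the cause was not tested. Results that rest on them are given with and without them.

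Between 81 and 83 of the 83 genes had a count in each library, and together they took 1.16% to 1.43% of counts in the untreated set and 1.03% to 1.13% in the treated set. In E14 the levels per kilobase of exon (CPM per kb, n = 3) spanned a wide range. Atp5b and Atp5a1, the catalytic beta and the alpha subunit of the ATP synthase head, were at 494 ± 1.73 (SD) and 421 ± 14.4. Cox6a1, Cox8a and Cox4i1, common subunits of complex IV, were at 455 ± 10.4, 310.0 ± 10.3 and 252 ± 7.45. Uqcr10, a small subunit of complex III, led that complex at 205 ± 17.2. Complex I ran from Ndufb9 at 107 ± 3.29 and Ndufa4 at 103 ± 7.6 down to Ndufb2 at 0.571 ± 0.103; Ndufa4 is now assigned to complex IV but stands under complex I here by its name. The 4 subunits of complex II were at 105 ± 4.49 (Sdhd), 92.2 ± 1.86 (Sdha), 42.4 ± 0.604 (Sdhb) and 35.5 ± 1.80 (Sdhc). Fragments that map to several places were not counted, and many of these genes have processed pseudogenes, so levels of different genes can be understated to different degrees; this was not measured.

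The isoforms restricted to other tissues were near the bottom in E14. Cox6b2, Cox7b2 and Cox8c are best known from testis, Cox6a2, Cox7a1 and Cox8b from heart and skeletal muscle, and Cox4i2 from lung. In E14 Cox6b2 was at 16.0 ± 1.23 CPM per kb, Cox7a1 at 3.69 ± 0.551, Cox8c at 0.862 ± 0.0789, Cox7b2 at 0.549 ± 0.208 and Cox4i2 at 0.404 ± 0.274. Cox6a2 and Cox8b had 0 to 0.463 CPM over the 22 libraries, and Cox8b had 0 counts in 20 of them. Cox6a2, Cox8b and Cox8c did not pass the filter on low counts in either set, and Cox7b2 did not in the untreated set, so 80 genes were tested in the treated set and 79 in the untreated set.

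The stretches before the starts of Cox7b2 and Cox6b2 are shown beside those of their common partners Cox7b and Cox6b1, because DNMT1 acts on CG pairs. With GSK Cox7b2 was called higher in each genotype, though its call is not read as support. Cox6b2 was called higher in KO22 and N22 but not in WT. Methylation was not measured. The sequences are RefSeq's, on GRCm38.p6, run 5′ to 3′ along the gene's strand and end where the counted gene model begins, with CG pairs in capitals. Cox7b2 (chr5:71548206-71548405, minus strand) and Cox6b2 (chr7:4753095-4753294, minus strand) each hold 8 CG pairs in 200 bases. Cox7b (chrX:106015500-106015699, plus strand) holds 5 in 200 bases and Cox6b1 (chr7:30626152-30626314, minus strand) holds 9 in 163 bases. In the promoter windows described next, 54.2% of all genes had fewer CG pairs than Cox7b2, and the same share fewer than Cox6b2. For Cox7b and Cox6b1 these shares were 36.5% and 66.1%, so CG content did not set the 2 isoforms apart.
Cox7b2: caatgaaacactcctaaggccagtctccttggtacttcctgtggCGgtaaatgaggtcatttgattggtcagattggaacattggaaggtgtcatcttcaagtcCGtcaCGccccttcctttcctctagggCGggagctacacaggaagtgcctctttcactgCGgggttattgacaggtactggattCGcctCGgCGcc
Cox7b: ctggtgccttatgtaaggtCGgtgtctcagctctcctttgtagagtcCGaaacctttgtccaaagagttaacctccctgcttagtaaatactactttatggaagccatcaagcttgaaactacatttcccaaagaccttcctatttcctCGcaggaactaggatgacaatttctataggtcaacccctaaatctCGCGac
Cox6b2: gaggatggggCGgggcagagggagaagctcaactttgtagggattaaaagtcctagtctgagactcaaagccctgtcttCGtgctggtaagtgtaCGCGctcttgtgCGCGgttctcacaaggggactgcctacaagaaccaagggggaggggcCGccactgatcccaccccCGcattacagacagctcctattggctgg
Cox6b1: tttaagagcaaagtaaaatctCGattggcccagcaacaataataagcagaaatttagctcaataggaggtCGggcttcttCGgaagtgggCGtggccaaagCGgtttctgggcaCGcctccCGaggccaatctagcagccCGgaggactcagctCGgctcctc

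RefSeq windows from 250 bases before to 50 bases after the start were found for 68 of the 83 genes and for 27025 genes in all. The median number of CG pairs per window was 19 in the respiratory chain genes and 8 over all genes. Motifs of factors known to serve nuclear genes of mitochondrial proteins were searched on both strands. The NRF1 motif GCATGCGC was in 10 of the 68 (14.7%) and in 3.05% of all genes. The ETS motif CCGGAAG, bound by GABPA, was in 16 (23.5%) against 9.93%, the YY1 motif ATGGCGG in 10 (14.7%) against 4.69%, and the estrogen-related receptor motif TCAAGGTCA in 2 (2.94%) against 0.466%. Ndufa11, called higher with GSK in each genotype, holds the NRF1 motif in its window. Sdhb, called lower in each genotype, holds the NRF1 motif as well, and the ETS motif elsewhere in its window. The NRF1 motif of Sdhb, in capitals here, is at chr4:140961206-140961235 on the plus strand, inside its counted gene model.
Sdhb: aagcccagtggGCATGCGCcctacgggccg
A match of letters is a description of the window and does not show that a factor binds there.

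In WT cells GSK lowered the RNA of many respiratory chain genes by a small amount. Their summed level was 11310 and 11150 CPM with DMSO and 10460 and 10320 CPM with GSK, and the ratio was -0.113 on the log2 scale (-0.175 with TMM effective library sizes, which correct for composition). Each complex was lower in both GSK libraries than in both DMSO libraries. Complex II moved furthest, from 722 and 702 to 608 and 613 CPM, and complex I least, from 2261 and 2234 to 2172 and 2146 CPM. In the edgeR quasi-likelihood test with Benjamini-Hochberg adjustment over all 16641 genes tested (called at an adjusted p below 0.05), 40 of the 80 genes were lower and 6 higher. Over all genes 28.1% were called lower and 28.7% higher. Among the 7794 genes at or above the 10th percentile of these genes in mean level, 39.5% were lower and 28.0% higher. They are called genes at like levels below, although only this lower limit was set and levels were not matched above it. The median log2 fold change was -0.139 for the respiratory chain genes, 0.003 over all genes tested and -0.055 over the 7794 genes at like levels.

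The 2 mutant clones gave like counts. In KO22 31 of the 80 genes were lower and 6 higher with GSK (21.2% and 24.8% of all genes, 32.9% and 24.0% at like levels). The median was -0.106, against 0.004 over all genes and -0.044 at like levels. In N22 34 were lower and 9 higher (26.0% and 26.9% of all genes, 38.5% and 26.0% at like levels). The median was -0.108, against 0.002 over all genes and -0.055 at like levels. The summed level went from 10970 and 11000 to 10610 and 10280 CPM in KO22 and from 11100 and 10920 to 10640 and 10690 CPM in N22, log2 ratios of -0.073 and -0.045. The 3 responses use separate DMSO controls, and 16 genes were lower in all of them: Atp5a1, Atp5h, Atp5j, Atp5o, Cox5a, Ndufb4, Ndufb8, Ndufb11, Ndufs3, Ndufs6, Ndufv2, Sdha, Sdhb, Sdhd, Uqcrc1 and Uqcrc2. These are 20% of the 80, against 12.4% of all genes tested and 20.6% of genes at like levels. Another 4, Cox7b2, Cox7c, Ndufa11 and Ndufb7, were higher in all 3 (5.0% against 14.4% and 13.4%), and 14 were called in none (17.5% against 24.9% and 13.3%). Cox7b2 is counted among the genes called higher in each response, but it passed the filter on low counts through its GSK libraries. Its call is not read as support.

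**Figure D1:**
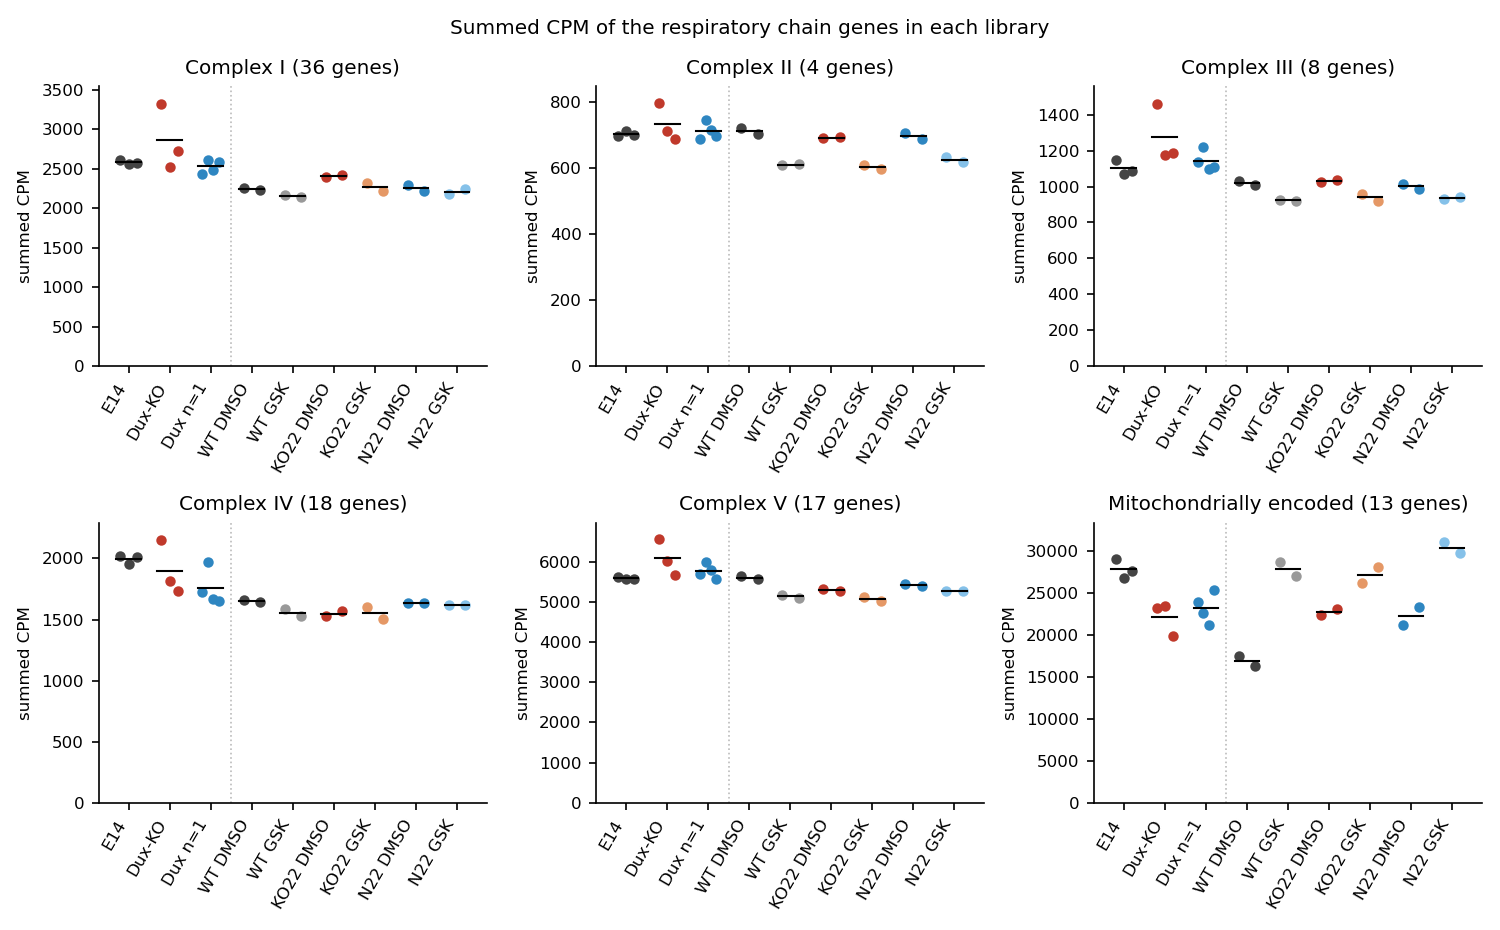
Summed CPM of the genes of each complex in the 22 libraries (points) with the group mean (bar); the dotted line separates the untreated set (left) from the treated set (right). Complex II is lower in both GSK libraries than in both DMSO libraries of each genotype, and Dux-KO 15 is the highest library of each complex.

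Complex II, succinate dehydrogenase, had the largest share of falls. Of its 4 subunits 4 were lower in WT, 3 in KO22 and 4 in N22, and none was higher. Of all genes 28.1%, 21.2% and 26.0% were lower in the same order, and 39.5%, 32.9% and 38.5% of those at like levels. Sdhb, the iron-sulfur subunit, had 125 and 116 CPM in WT with DMSO and 80.3 and 80.3 with GSK, 96.3 and 94.6 against 71.5 and 65.3 in KO22, and 112 and 112 against 84.8 and 77.0 in N22. No GSK library reached a DMSO library of its genotype. Sdhb fell by 0.65 ± 0.05 (log2, SE) in WT (edgeR adjusted p = 8.6e-17), by 0.49 ± 0.06 in KO22 (adjusted p = 1.52e-11) and by 0.52 ± 0.06 in N22 (adjusted p = 8.09e-13), the largest change of a subunit that is not a tissue-restricted form in KO22 and N22. Sdhd, a membrane anchor, fell by 0.29, 0.32 and 0.24 in the same order, each ± 0.05. Sdhc, the other anchor, fell in WT (0.36 ± 0.05) and N22 (0.27 ± 0.05), and in KO22 its log2 fold change was -0.10 with an edgeR adjusted p of 0.0695. Sdha, the catalytic flavoprotein, changed least. It fell by 0.15 ± 0.03 in WT and 0.14 ± 0.03 in KO22; the fall in N22 (0.08 ± 0.04, edgeR adjusted p = 0.0452) was lost without N22 DMSO 1 (-0.055, adjusted p = 0.323), N22 GSK 1 (0.14), N22 GSK 2 (0.142), or any 1 of the DMSO libraries of KO22 and WT (0.0501 to 0.0522).

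Complex III lost RNA of its large core proteins. In each genotype 4 of its 8 genes were lower (50.0%) and none higher. Of all genes 28.1%, 21.2% and 26.0% were lower in WT, KO22 and N22, and 39.5%, 32.9% and 38.5% of those at like levels. Uqcrc2 had 159 and 156 CPM in WT with DMSO and 125 and 128 with GSK, 144 and 145 against 116 and 120 in KO22, and 152 and 144 against 122 and 127 in N22. Uqcrc1 had 381 and 378 against 333 and 322, 376 and 387 against 340 and 342, and 375 and 357 against 317 and 332 CPM. Both core proteins were lower in every GSK library than in any DMSO library of the same genotype. Uqcrc2 fell by 0.38 ± 0.04, 0.30 ± 0.04 and 0.30 ± 0.04 (log2; WT, KO22, N22; edgeR adjusted p = 6.14e-11, 7.48e-08 and 7.92e-08), and Uqcrc1 by 0.28 ± 0.04, 0.17 ± 0.04 and 0.22 ± 0.04. Of Uqcrc2's exon bases 19.7% overlap Pdzd9, and counting ignored strand. Uqcrb fell in WT (0.27 ± 0.06) and was at 0.01 and 0.07 in KO22 and N22. Uqcrh, the hinge protein that helps cytochrome c dock, fell in KO22 (0.26 ± 0.06) and N22 (0.25 ± 0.06; -0.168, edgeR adjusted p = 0.0527, without N22 GSK 2). Uqcrfs1, the Rieske iron-sulfur protein, was called lower in WT (-0.12 ± 0.05, adjusted p = 0.0412), and this was lost without WT DMSO 1 (0.289), WT GSK 1 (0.156), WT GSK 2 (0.106), N22 GSK 1 (0.0619) or either N22 DMSO library (0.0526 and 0.052).

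Complex I, the NADH dehydrogenase, was mixed. Of its 36 genes 13 were lower and 3 higher in WT, 14 and 2 in KO22, and 14 and 5 in N22. The shares lower, 36.1%, 38.9% and 38.9%, stood beside 39.5%, 32.9% and 38.5% of all genes at like levels, so in WT and N22 complex I was close to that background. Among the 7 core subunits, which carry the flavin and the iron-sulfur clusters or lie beside them, 5 were lower in WT, 3 in KO22 and 4 in N22; the 1 core subunit called higher was Ndufs8 in N22 (0.19 ± 0.07, lost at 0.138, edgeR adjusted p = 0.207, without N22 DMSO 2, and without N22 GSK 1 or GSK 2 at 0.0566 and 0.0543). Ndufv2, a core iron-sulfur subunit, had 88.3 and 92.3 CPM in WT with DMSO and 73.2 and 76.5 with GSK, 90.5 and 81.9 against 73.0 and 69.2 in KO22, and 86.9 and 84.5 against 78.6 and 73.0 in N22. It fell by 0.33 ± 0.06, 0.29 ± 0.06 and 0.23 ± 0.06 (log2; edgeR adjusted p = 6e-07, 1.76e-05 and 0.000542). Ndufs1, the largest core subunit, was called lower in KO22 (-0.11 ± 0.04, adjusted p = 0.0498), and this call was lost without KO22 DMSO 1 (0.072), KO22 DMSO 2 (0.204), KO22 GSK 2 (0.291), N22 DMSO 2 (0.05) or N22 GSK 1 (0.0547). Ndufs3, a core subunit among the 16 lower in all genotypes, had the weakest call there: in WT (-0.13 ± 0.06, edgeR adjusted p = 0.0474) it was lost under 6 other settings of the fit and without any 1 of 11 of the 12 libraries (0.0514 to 0.223). In KO22 it was lost without KO22 GSK 2 (0.0773) and in N22 without N22 GSK 1 (0.429), N22 DMSO 1 (0.107) or N22 DMSO 2 (0.0573).

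Among the accessory subunits of complex I, Ndufb11 and Ndufb4 of the membrane arm were lower in all 3 genotypes, as were Ndufb8 and Ndufs6. Ndufb11 had 56.2 and 56.8 CPM in WT with DMSO and 40.9 and 39.4 with GSK, 56.6 and 58.9 against 42.2 and 41.7 in KO22, and 58.9 and 53.4 against 49.3 and 46.4 in N22. It fell by 0.56 ± 0.07, 0.47 ± 0.07 and 0.28 ± 0.06 (log2; edgeR adjusted p = 3.1e-11, 4.83e-09 and 0.000182). Ndufb4 went from 34.5 and 33.7 to 24.1 and 21.5 CPM in WT (-0.64 ± 0.09) and from 33.0 and 31.4 to 25.8 and 21.9 in N22 (-0.49 ± 0.09). In KO22 it went from 31.3 and 30.4 to 28.8 and 23.3 CPM (-0.25 ± 0.09), a call lost without KO22 GSK 2 (-0.11, edgeR adjusted p = 0.431) or KO22 DMSO 1 (-0.237, 0.081). Ndufb10 fell in KO22 (0.38 ± 0.06) and N22 (0.35 ± 0.06) and was at -0.10 in WT.

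Ndufa11 and Ndufb7, accessory subunits as well, moved the other way. Ndufa11 rose from 58.0 and 56.9 to 72.9 and 79.8 CPM in WT, from 67.2 and 65.9 to 78.5 and 78.7 in KO22, and from 60.5 and 58.4 to 72.4 and 77.6 in N22. Ndufb7 rose from 42.3 and 44.99 to 56.2 and 57.8, from 40.2 and 41.5 to 54.1 and 47.2, and from 41.7 and 41.2 to 59.7 and 57.0 CPM. In each genotype both GSK libraries were above both DMSO libraries. The log2 fold changes were 0.35, 0.23 and 0.29 for Ndufa11 and 0.32, 0.30 and 0.44 for Ndufb7, with SEs of 0.06 and 0.07; with a per-library GC offset Ndufa11 in KO22 was at 0.092 and lost its call. Ndufa12 could not be read, because its replicates split: 29.6 and 51.0 CPM in WT with DMSO, 36.5 and 57.6 in KO22 with GSK, and 27.3 and 55.2 in N22 with GSK.

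In complex V, the ATP synthase, 11 of 17 genes were lower and 1 higher in WT, 8 and 0 in KO22, and 5 and 0 in N22. The shares lower were 64.7%, 47.1% and 29.4%, against 28.1%, 21.2% and 26.0% of all genes and 39.5%, 32.9% and 38.5% at like levels. In N22 the share lower was thus near that of all genes and under that at like levels. The difference from the WT response was called higher for 3 and lower for 2 of the 17 in KO22 (median -0.015). These are 17.6% and 11.8%, near the 18.3% and 13.5% of all genes. In N22 it was called higher for 2 and lower for none (median 0.061), or 11.8% and 0.0%, against 5.82% and 5.26% of all genes. Atp5a1, the alpha subunit of the catalytic head, had 1524 and 1524 CPM in WT with DMSO and 1257 and 1249 with GSK, 1389 and 1317 against 1226 and 1232 in KO22, and 1474 and 1473 against 1345 and 1334 in N22. It fell by 0.34 ± 0.03, 0.15 ± 0.03 and 0.18 ± 0.03 (log2; edgeR adjusted p = 1.97e-17, 6.37e-06 and 4.22e-08). Atp5b, the catalytic beta subunit, went from 2236 and 2206 to 2088 and 2059 CPM in WT (-0.16 ± 0.03) and was at 0.01 and -0.04 in KO22 and N22. Atp5c1, the gamma subunit that turns inside the head, fell in WT (0.17 ± 0.04); in KO22 its call (-0.11 ± 0.04) was lost without KO22 DMSO 2 (adjusted p = 0.146) or KO22 GSK 2 (0.22). Atp5o, which joins head and stalk, and Atp5j and Atp5h, which belong to the stalk, fell in all 3 genotypes by 0.12 to 0.29. Counting ignored strand, and 31.3% of Atp5o's exon bases overlap D430001F17Rik and Gm15976 and 12.7% of Atp5j's overlap Gabpa. Such overlaps touch 23 of the 83 genes, none over 50% of its exon bases. Atp5j lost its call in KO22 without KO22 DMSO 2 (0.0812) and in N22 without N22 GSK 1 (0.135). Of the 3 genes that encode the same membrane ring subunit, Atp5g2 fell in WT (0.21 ± 0.05) and Atp5g1 in KO22 (0.23 ± 0.06), whereas Atp5g3 was called higher in WT (0.12 ± 0.04; 0.18 and 0.125 without WT DMSO 2 or WT GSK 1). Atp5s, a low-level coupling factor, went from 7.66 and 7.98 to 5.06 and 4.23 CPM in WT (-0.81 ± 0.19).

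**Figure D2:**
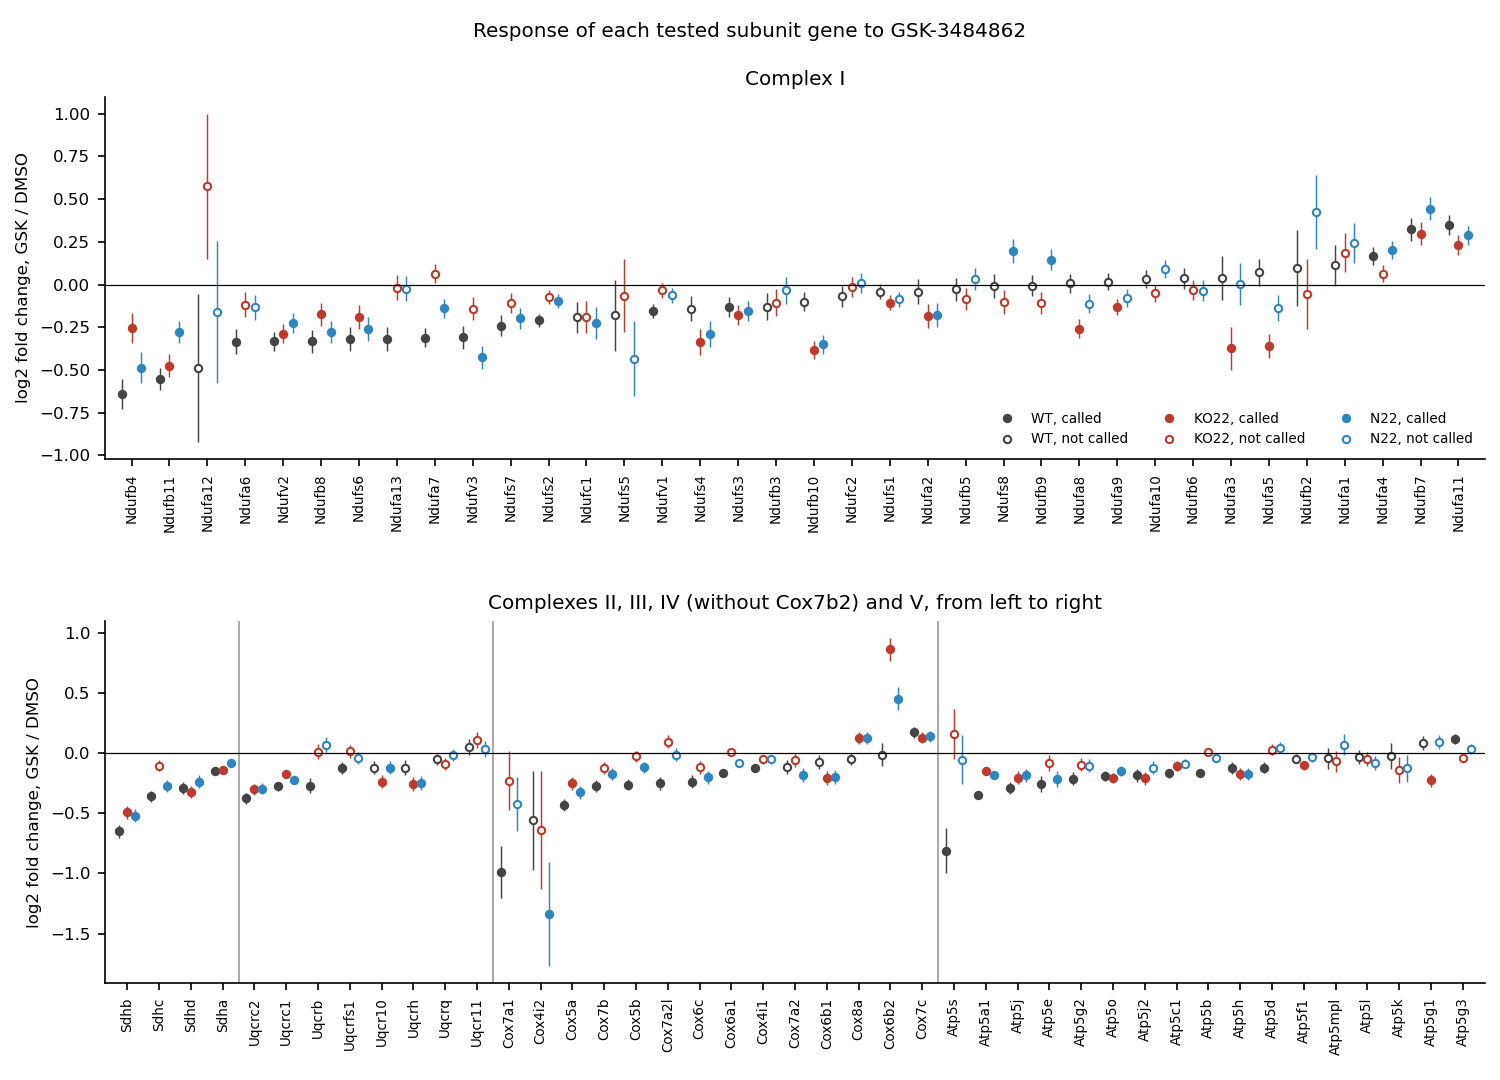
Log2 fold change of GSK against DMSO for each tested gene by complex and genotype (points; bars are SEs; filled points are called at an adjusted p below 0.05). Cox7b2, at fitted values of 5.58 to 6.04 that rest on few DMSO counts, is left out of the plot; most filled points lie below 0, and Sdhb and Ndufb11 are low in all 3 genotypes.

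Complex IV, cytochrome c oxidase, was mixed. Of its 15 tested genes 8 were lower and 2 higher in WT, 2 and 4 in KO22, and 7 and 4 in N22. Each count of higher genes includes Cox7b2, treated below. The shares lower were 53.3%, 13.3% and 46.7%, against 28.1%, 21.2% and 26.0% of all genes and 39.5%, 32.9% and 38.5% at like levels. The shares higher were 13.3%, 26.7% and 26.7%, against 28.7%, 24.8% and 26.9% of all genes. In KO22 and N22 the share higher was thus near that of all genes. Cox5a, a common subunit, had 111 and 110 CPM in WT with DMSO and 87.8 and 83.4 with GSK, 98.0 and 99.7 against 88.6 and 78.9 in KO22, and 104 and 99.6 against 84.5 and 83.4 in N22. It fell by 0.43, 0.25 and 0.32 (log2), each ± 0.05 (edgeR adjusted p = 2.14e-10, 8.24e-05 and 5.82e-07); 38.7% of its exon bases overlap Gm26631, with which it shares unstranded counts. Cox4i1 fell in WT (0.12 ± 0.04) and was at -0.05 in KO22 and N22. Cox5b fell in WT (0.26 ± 0.05), was at -0.03 in KO22, and in N22 its call (-0.12 ± 0.05) was lost without any 1 N22 library (adjusted p from 0.085 to 0.126). Cox7c was called higher in all 3 (0.17, 0.13 and 0.14, each ± 0.05). With a GC offset it was at 0.084 in WT and N22 and lost both calls; in KO22 it lost the call without KO22 DMSO 1 (0.1) or KO22 GSK 1 (0.072), and in N22 without N22 DMSO 2 (0.136). DESeq2 did not call several of the smaller changes given here for the 5 complexes: Ndufs3 and Uqcrfs1 in WT, Ndufb4, Ndufs1 and Cox7c in KO22, and Sdha, Ndufs3, Ndufs8, Cox5b, Cox7a2 and Cox4i2 in N22.

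The testis isoform Cox7b2 had few counts without GSK. It had 2 and 1 counts in WT with DMSO and 99 and 113 with GSK, 1 and 4 against 149 and 111 in KO22, and 4 and 2 against 152 and 137 in N22. The 10 untreated libraries held 3 to 7 counts each. Summed over both libraries and per total count, GSK was above DMSO by a ratio of 74.3 in WT (exact 95% interval 25.1 to 363), 51.7 in KO22 (21.9 to 161) and 51.1 in N22 (23.2 to 140); the intervals cover counting error only. Cox7b2 passed the filter on low counts through its GSK libraries, so it had to differ, and its call is not read as support. Its common partner Cox7b, which takes the same place in the enzyme, went from 122 and 124 to 112 and 101 CPM in WT (-0.27 ± 0.05). In KO22 Cox7b was at -0.12, and in N22 at -0.17 ± 0.05, a call lost without N22 GSK 2 (-0.138, adjusted p = 0.0687).

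Cox6b2, the other testis isoform with enough counts, depended on genotype. It had 23.8 and 21.2 CPM in WT with DMSO and 23.5 and 23.0 with GSK, 14.9 and 16.0 against 28.8 and 27.9 in KO22, and 16.9 and 17.2 against 23.7 and 24.7 in N22. The WT libraries overlapped, and in both clones GSK was above DMSO. The log2 fold change was -0.01 in WT, 0.86 ± 0.10 in KO22 (edgeR adjusted p = 8e-12) and 0.45 ± 0.10 in N22 (adjusted p = 5.64e-05). Its common partner Cox6b1 fell in KO22 (0.21 ± 0.06) and N22 (0.20 ± 0.06) and was at -0.08 in WT; these calls were lost without KO22 GSK 2 (-0.157, 0.0654) and without N22 GSK 1 (-0.126, 0.131).

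The muscle isoform Cox7a1 and the lung isoform Cox4i2 did not rise. Cox7a1 went from 5.25 and 6.18 to 2.64 and 3.37 CPM in WT (-0.99 ± 0.22, edgeR adjusted p = 9.34e-05), and its log2 fold changes in KO22 (-0.23) and N22 (-0.42) were not called. Its common partner Cox7a2 was called in N22 (-0.18 ± 0.06; lost at -0.11, adjusted p = 0.213, without N22 DMSO 2 and at 0.0536 without N22 GSK 1). Cox4i2 had 0.315 to 1.85 CPM in the treated set and was called in N22 (-1.34 ± 0.43, adjusted p = 0.0074), which was lost without N22 GSK 1 (-0.869, 0.16). Cox8c had 0 to 0.759 CPM over all libraries, and Cox6a2 stayed at or under 0.463 CPM.

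**Figure D3:**
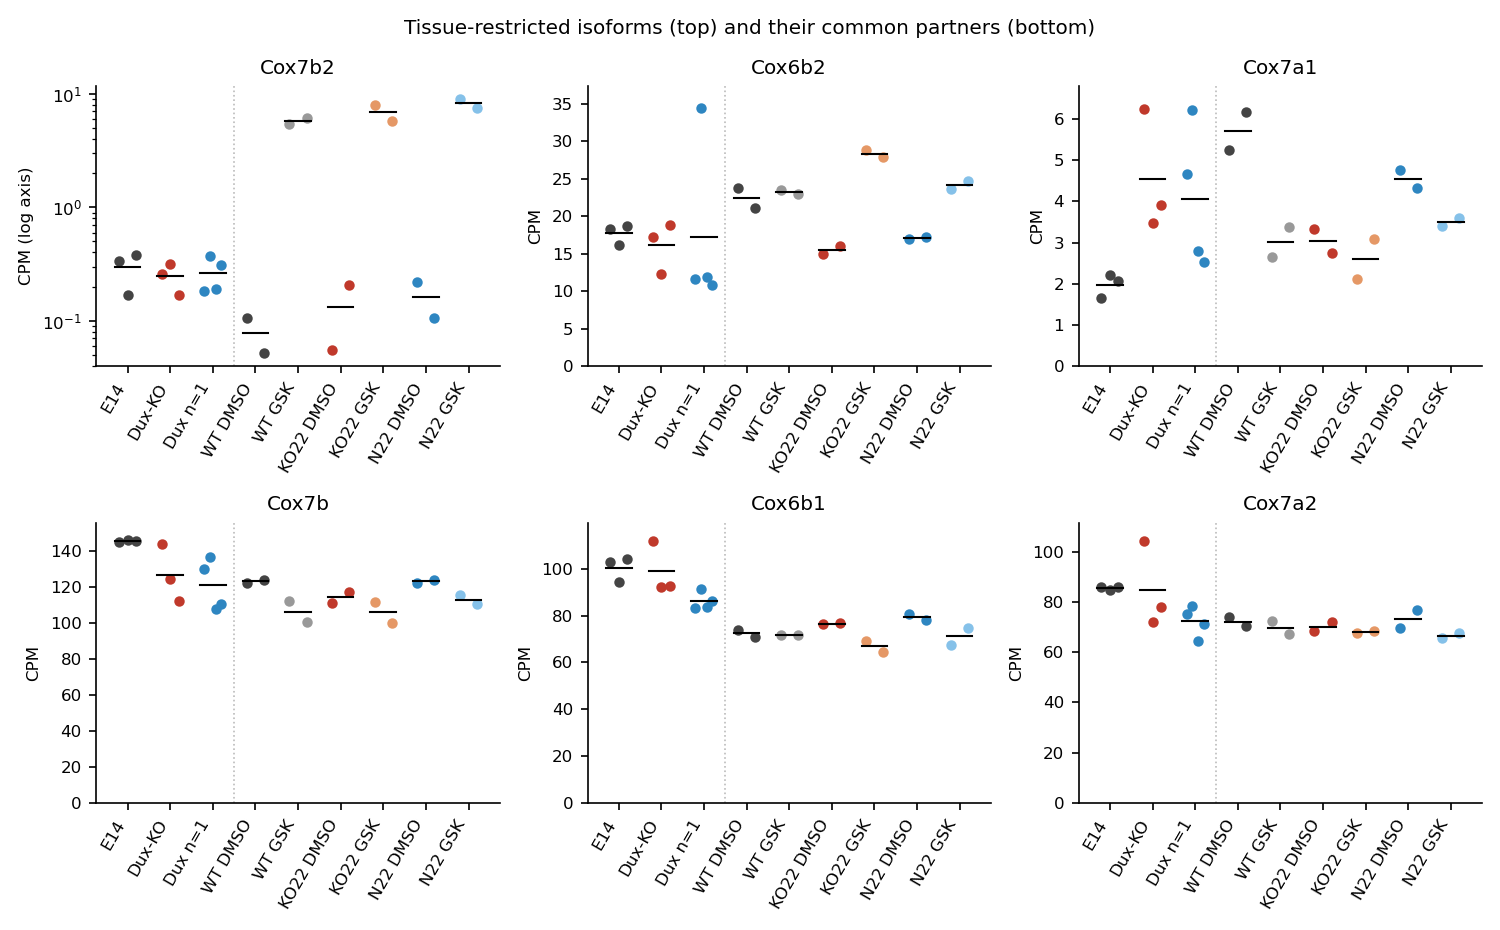
CPM of Cox7b2 (log axis), Cox6b2 and Cox7a1 and of their common partners Cox7b, Cox6b1 and Cox7a2 in each library (points) with the group mean (bar); the dotted line separates the untreated from the treated set. Cox7b2 is at 5.44 to 9.07 CPM in the 6 GSK libraries and at or under 0.383 CPM in all others.

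Markers of cell states moved with the compound too. Of the 10 ES cell markers 9 were lower with GSK in WT, 9 in KO22 and 10 in N22. Of 6 markers of primitive endoderm 5, 3 and 3 were higher and 0, 1 and 0 lower, from sums of 4.80 to 9.29 CPM with DMSO to 10.7 to 19.9 CPM with GSK. Of 6 markers of 2-cell-like cells 6 were higher in WT and N22 and none in KO22: the sum went from 4.30 and 5.15 to 52.6 and 54.4 CPM in WT and from 1.42 and 2.69 to 22.9 and 21.4 in N22, and was 0 with DMSO and 0.0541 and 0.157 with GSK in KO22. Their part in the changes of the respiratory chain genes was not tested. In bulk RNA fewer cells of a type and less RNA per cell cannot be told apart.

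The difference between the responses of KO22 and WT was itself called for 17 of the 80 genes, 12 with a higher value in KO22 and 5 with a lower one (18.3% and 13.5% of all genes), with a median difference of 0.057. For N22 against WT it was 7 and 1 (5.82% and 5.26% of all genes), with a median of 0.062; 2 were called by DESeq2, an alternative count test. Both differences use the same WT libraries, and each DMSO library enters a response as its control. Atp5a1 fell less in KO22 by 0.20 ± 0.04 and in N22 by 0.16 ± 0.04 (edgeR adjusted p = 5.45e-05 and 0.00309), and Atp5b by 0.17 ± 0.04 and 0.12 ± 0.04 (0.000148 and 0.0158). For Atp5b in N22 the call was lost without N22 DMSO 2 (0.102), WT DMSO 1 (0.0749), WT GSK 2 (0.0789) or N22 GSK 1 (0.0655). Uqcrb differed by 0.28 ± 0.09 in KO22 and 0.34 ± 0.09 in N22, and Cox7a2l, which helps join complexes III and IV, by 0.35 ± 0.08 and 0.24 ± 0.08. Those for Uqcrb in KO22 were lost without KO22 DMSO 1 (0.0724), WT GSK 1 (0.0722) or KO22 GSK 1 (0.0879), and in N22 without WT GSK 1 (0.0532); that of Cox7a2l in N22 was lost without any 1 of 6 libraries (adjusted p up to 0.234 without WT DMSO 2).

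In the comparison of KO22 with WT, Cox6b2 (0.88 ± 0.13, edgeR adjusted p = 2.37e-07), Atp5s (0.97 ± 0.28, 0.00461), Ndufa7 (0.37 ± 0.08, 0.000116) and Sdhc (0.26 ± 0.07, 0.00183) also had the higher value in KO22, and Ndufa5 (-0.43 ± 0.10), Atp5g1 (-0.31 ± 0.08), Ndufb10 (-0.28 ± 0.08) and Ndufa8 (-0.27 ± 0.08) the lower. Without KO22 DMSO 1 Atp5s was at 0.751 (0.0579). Several of these genes already stood apart in KO22 with DMSO, as described next, and the 2 comparisons share those DMSO libraries. Cox6b2 in N22 differed from WT by 0.47 ± 0.13 (adjusted p = 0.0137), which was lost without N22 DMSO 1 (0.0553), WT DMSO 1 (0.115) or N22 GSK 2 (0.0605). Sdhb, Cox5a, Uqcrc1 and Uqcrc2 fell in all 3 genotypes, and no difference between their responses was called. DESeq2 did not call the differences of Atp5s and Uqcrb in KO22 or of Uqcrb, Cox7a2l and Cox6b2 in N22.

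With DMSO, KO22 differed from WT in both directions. Of the 80 genes 13 were higher and 21 lower in KO22 (23.4% and 28.5% of all genes), with a median of -0.023; DESeq2 gave 11 and 10, and a fit of those 2 conditions alone 17 and 15. The 4 genes on chromosome 6, all of complex I, were all higher, and these libraries had more counts on that chromosome. Ndufa5 (chr6:24518666-24528013) had 27.8 and 25.8 CPM in WT and 50.4 and 49.5 in KO22, Ndufa4 (chr6:11900292-11907497) 94.1 and 84.98 against 154 and 147, and Ndufa9 (chr6:126821721-126849136) 86.5 and 92.4 against 145 and 149. Their log2 fold changes were 0.88 ± 0.07, 0.73 ± 0.05 and 0.70 ± 0.05 (edgeR adjusted p = 1.04e-16, 1.79e-19 and 1.17e-19), and Ndufb2, at 3.20 to 5.17 CPM, was at 0.55 ± 0.21 (0.025). Over the 805 genes tested on chromosome 6 the median was 0.273 and 42.2% were higher, against 22.4% of genes elsewhere. Off chromosome 6, 9 of 76 respiratory chain genes were higher and 21 lower.

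**Figure D4:**
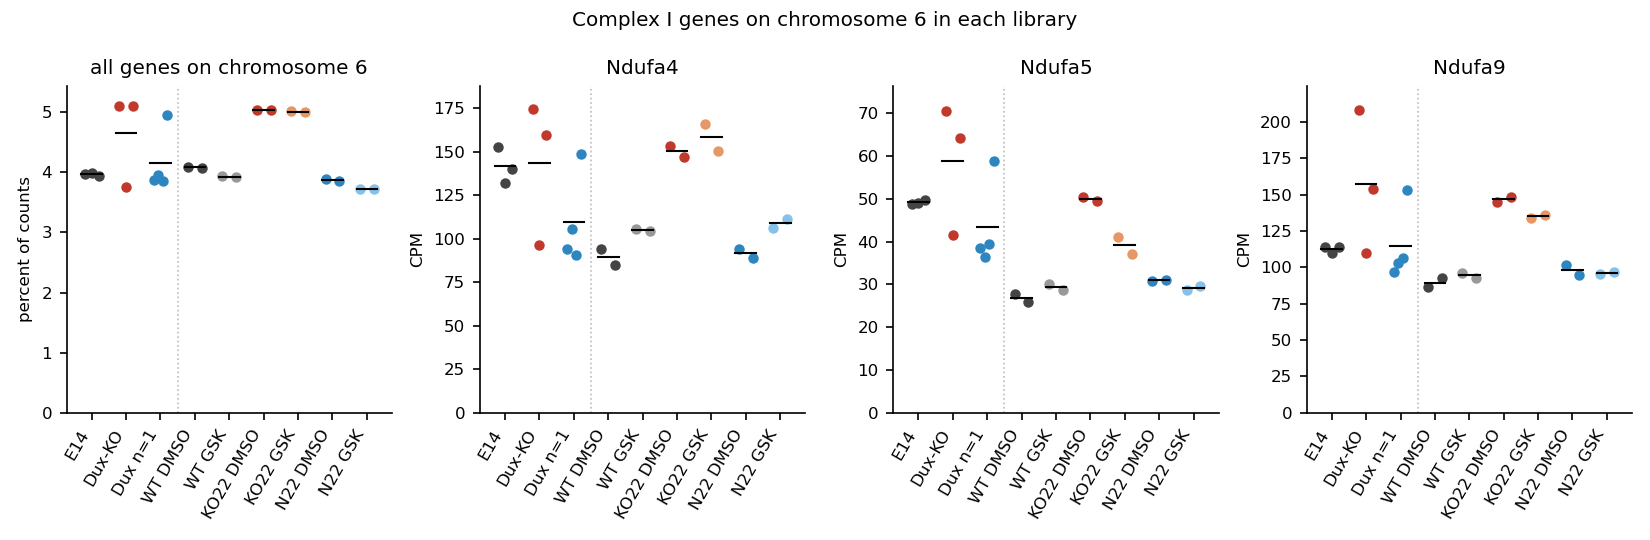
Share of counts on chromosome 6 (percent) and CPM of Ndufa4, Ndufa5 and Ndufa9 in each library (points) with the group mean (bar). Dux-KO 15, Dux-KO 52, Dux n=1 40 and the 4 KO22 libraries hold 4.96% to 5.11% of counts on chromosome 6, and the others 3.71% to 4.09%.

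Off chromosome 6, the genes for the ring subunit of the ATP synthase moved in opposite directions in KO22. Atp5g1 had 154 and 147 CPM in WT and 206 and 213 in KO22 (0.46 ± 0.06, edgeR adjusted p = 8.7e-07), whereas Atp5g2 had 126 and 123 against 87.1 and 90.5 (-0.50 ± 0.06, 3.63e-11), and Atp5g3 was at 0.22 ± 0.04. All 3 encode the same mature protein and differ in their import sequences. Cox6b2 (-0.56 ± 0.10), Cox7a1 (-0.93 ± 0.22), Atp5s (-1.03 ± 0.19), Ndufa7 (-0.35 ± 0.06) and Sdhb (-0.36 ± 0.05) were lower, and Ndufa8 (0.37 ± 0.05) and Ndufb10 (0.30 ± 0.06) higher. In 8 of the 15 tested complex IV genes KO22 was lower and in 1 higher; among them Cox4i1 was at -0.20 ± 0.04 and Cox7a2l at -0.32 ± 0.05.

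N22 with DMSO was closer to WT by count, with 6 genes higher and 6 lower (11.5% and 13.9% of all genes), a median of -0.002, and 1 and 4 by DESeq2; the clones differ, and this was not tested as a difference between them. Atp5s went from 7.66 and 7.98 CPM in WT to 3.66 and 4.96 in N22 (-0.86 ± 0.19, edgeR adjusted p = 0.00029) and Ndufa7 from 94.4 and 96.9 to 80.0 and 77.8 (-0.28 ± 0.06, 6.18e-05). Both were lower in KO22 as well, where the same WT libraries are the control. Cox6b2 was at -0.39 ± 0.10, lost without WT DMSO 1 (-0.311, adjusted p = 0.0585), and Uqcrb at -0.22 ± 0.06, lost without N22 DMSO 2 (0.0599) or WT DMSO 2 (0.0529). The 6 genes called higher, Ndufa5, Ndufa2, Ndufv3, Uqcrh, Ndufa9 and Cox7c, were at 0.13 to 0.21, and each lost its call without at least 1 of the N22 or WT DMSO libraries, for example Ndufa5 without WT DMSO 2 (0.159, 0.285).

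In untreated cells the number of genes called depended on the tool. By edgeR against E14, 5 of 79 genes were higher and 3 lower in Dux-KO (9.26% and 11.1% of all 14796 genes tested; median 0.003), and 1 was higher and 3 lower in Dux n=1 (4.88% and 4.28%; median -0.135). DESeq2 called 7 higher and 3 lower in Dux-KO, and 3 higher and 10 lower in Dux n=1. The shares of all genes that DESeq2 called against E14 are not given, so its counts are not read against a background. The 2 kinds of clone did not differ in any called gene (0.0% of all genes in either direction, by edgeR and by DESeq2); 7 of the 79 and 856 of all genes had an unadjusted p below 0.05. The median difference of Dux n=1 from Dux-KO was -0.133, with 74 of the 79 below 0, against 0.002 and 49.8% over all genes. The spread among clones was large here: the summed level was 14300 CPM in Dux-KO 15 and 12260 and 12010 in clones 22 and 52, against 11880 to 12090 in E14 and 11610 to 12550 in Dux n=1.

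Uqcrc1, a core protein of complex III, was higher in both kinds of clone. It had 316, 295 and 311 CPM in E14, 456, 418 and 413 in Dux-KO and 401, 452, 375 and 372 in Dux n=1, and no clone overlapped E14. The log2 fold change was 0.43 ± 0.09 in Dux-KO (edgeR adjusted p = 0.00736), called without any 1 library but not with a GC offset (0.262, 0.0936). In Dux n=1 it was 0.34 ± 0.08 (0.0294) and lost its call without any 1 E14 library or Dux n=1 17 (0.077 to 0.126). Cox7c, a small subunit of complex IV, was lower in both: 251, 218 and 242 CPM in E14, 204, 178 and 172 in Dux-KO, and 166, 176, 161 and 157 in Dux n=1. It was at -0.41 ± 0.10 (0.014) and -0.56 ± 0.09 (0.00761). Without E14 1 these became -0.358 (0.0771) and -0.501 (0.0702), without E14 3 -0.39 and -0.544 (0.0665 and 0.0667), and without Dux-KO 52 the former was -0.347 (0.0516); with a GC offset they were 0.315 (0.124) and -0.107 (0.62). Both comparisons share the E14 libraries.

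Atp5j, a stalk subunit of the ATP synthase, was at -0.33 ± 0.09 in Dux-KO and -0.36 ± 0.09 in Dux n=1, and lost both calls without any 1 E14 library. In Dux-KO, Cox4i2 rose by 2.57 ± 0.69 (edgeR adjusted p = 0.0232): its 113 counts over 3 clones against 17 over 3 E14 libraries give a ratio of 6.36 per total count (exact 95% interval 3.80 to 11.3, for counting error only). The clones differed among themselves, with 68, 13 and 32 counts, or 3.51, 0.684 and 1.81 CPM, in clones 15, 22 and 52. Without Dux-KO 15 it was at 1.92 (0.0932), and the call was also lost without E14 1 or E14 3 (0.101 and 0.0965). Cox7a1 was at 1.15 ± 0.36, from 1.64 to 2.20 CPM in E14 to 6.24, 3.47 and 3.91, and was lost without any 1 E14 library, Dux-KO 15 (0.881, 0.145), Dux-KO 52 or Dux n=1 17. Ndufs7, Ndufa8 and Ndufs1 (0.38, 0.38 and -0.30) and, in Dux n=1, Uqcrh (-0.39 ± 0.10) lost their calls without any 1 E14 library. Without E14 1 the counts fell to 1 and 0 genes.

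Leaving out Dux-KO 22 and Dux n=1 40 gave 9 genes in Dux-KO (7 higher, 2 lower) and 7 in Dux n=1 (2 higher, 5 lower) against E14. Ndufa4, Ndufa5 and Ndufa9 were then also called lower in Dux n=1 than in Dux-KO, by log2 values of -0.738, -0.77 and -0.775 (edgeR adjusted p = 0.0232, 0.0232 and 0.0309). Without the 3 libraries with more counts on chromosome 6 (Dux-KO 15, Dux-KO 52 and Dux n=1 40) they gave 0 and 9. The shares of all genes called in these fits are not given, so the counts are not read as particular to the respiratory chain genes. Among the clones, Ndufa5 and Ndufa9 were highest in the 3 libraries with more counts on chromosome 6. Ndufa5 had 48.9 to 49.7 CPM in E14 and 70.5, 41.5 and 64.2 in Dux-KO clones 15, 22 and 52. In Dux n=1 clones 17, 22, 31 and 40 it had 38.6, 36.5, 39.4 and 58.9 CPM. Ndufa9 had 208, 110 and 154 CPM in the same Dux-KO clones and 96.6, 103, 107 and 153 in the Dux n=1 clones. Ndufa4 had 174.4, 96.2 and 159.4 CPM in the Dux-KO clones and 94.2, 105.8, 90.7 and 148.5 in the Dux n=1 clones. E14, without the higher share of chromosome 6, was nonetheless at 152.8, 132.0 and 140.3 CPM for Ndufa4. Ndufb2 was low, at 2.57 to 3.68 CPM in E14 and 1.09 to 3.40 in the clones. All the libraries left out here were picked by their counts on that chromosome, so this is a description.

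Most glycolysis genes were lower with GSK. Of 18 glycolysis genes 17 were called lower with GSK in WT (median -1.01) and 17 in N22 (-0.947). In KO22 15 were called lower and 1 higher (-0.462). The shares lower were 94.4%, 83.3% and 94.4% in WT, KO22 and N22, against 28.1%, 21.2% and 26.0% of all genes. Tpi1, triosephosphate isomerase, fell by 1.89 ± 0.04, 1.23 ± 0.04 and 2.15 ± 0.04 in WT, KO22 and N22, and Pgk1, phosphoglycerate kinase, by 1.32, 0.49 and 1.29, each ± 0.03. With DMSO 17 of the 18 (94.4%, against 28.5% of all genes) were already lower in KO22 than in WT (median -0.544). The difference between the responses of KO22 and WT, which shares those libraries, was called higher for 17 (94.4%, against 18.3% of all genes). In untreated cells 11 of 18 were higher in Dux-KO and 8 in Dux n=1 than in E14, with none lower. These are 61.1% and 44.4%, against 9.26% and 4.88% of all genes. Of 18 genes of the tricarboxylic acid cycle 10 were lower in WT (none higher), 10 in KO22 (3 higher) and 6 in N22 (1 higher). Their medians were -0.178, -0.133 and -0.076, with Idh3a at -0.50 ± 0.04 and Pdha1 at -0.40 ± 0.04 in WT. The shares lower were 55.6%, 55.6% and 33.3%, against 28.1%, 21.2% and 26.0% of all genes. At like levels of the respiratory chain genes 39.5%, 32.9% and 38.5% were lower.

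Several subunits encoded in mitochondrial DNA were higher with GSK. Of 13 such genes 8 rose in WT (median 0.966), 3 in KO22 (0.276) and 7 in N22 (0.545), and none fell. These are 61.5%, 23.1% and 53.8%, against 28.7%, 24.8% and 26.9% of all genes called higher, so the share in KO22 was near that of all genes. Their summed level went from 17510 and 16320 to 28690 and 27000 CPM in WT, from 22350 and 23140 to 26140 and 28050 in KO22, and from 21160 and 23340 to 31080 and 29720 in N22. Per count of the nuclear genes this was 1.55 and 1.46 against 2.74 and 2.62 in WT, 2.037 and 2.104 against 2.46 and 2.73 in KO22, and 1.91 and 2.14 against 2.92 and 2.78 in N22. Each GSK library was above both DMSO libraries of its genotype. mt-Cytb, of complex III, rose by 0.85 ± 0.05, 0.18 ± 0.05 and 0.54 ± 0.05 in WT, KO22 and N22 (edgeR adjusted p = 2.31e-06, 0.0238 and 5.25e-05), and mt-Nd1, of complex I, by 1.02 ± 0.07 in WT and 0.42 ± 0.07 in N22, with 0.11 in KO22 (0.25). Untreated E14 was at 26810 to 29020 CPM, above WT with DMSO; the 2 sets were not compared by a test.

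Genes that build or serve the chain were mixed. Of 77 mitochondrial ribosomal protein genes, which make the subunits encoded in mitochondrial DNA, 28 were lower and 11 higher in WT, 37 and 1 in KO22, and 34 and 5 in N22. Over all genes tested 28.1%, 21.2% and 26.0% were lower, and 39.5%, 32.9% and 38.5% of those at like levels of the respiratory chain genes. Of 18 complex I assembly factors 8, 7 and 8 were lower (44.4%, 38.9% and 44.4%) and 5, 2 and 1 higher. Acad9 rose by 0.92 ± 0.06 and Nubpl fell by 1.21 ± 0.13 in WT. Of 22 complex IV assembly factors 6, 7 and 5 were lower (27.3% in WT, near the share of all genes) and 4, 1 and 2 higher, with Cox17, a copper chaperone, at -1.50 ± 0.21 in WT. For complexes II, III and V, 4, 6 and 3 factors were tested, and 0, 3 and 0 were lower and 1, 1 and 1 higher in WT. Those counts were 2, 2 and 1 lower and 0, 0 and 1 higher in KO22, and 0, 2 and 0 lower and 0, 0 and 1 higher in N22.

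Of 16 regulators of mitochondrial biogenesis and transcription 9 were lower in WT, 6 in KO22 and 10 in N22, and 1 was higher, in WT. The shares lower were 56.2%, 37.5% and 62.5%. Over all genes tested 28.1%, 21.2% and 26.0% were lower, and 39.5%, 32.9% and 38.5% of those at like levels of the respiratory chain genes. Ppargc1b, a coactivator of nuclear mitochondrial genes, fell by 1.77 ± 0.19, 1.09 ± 0.20 and 1.37 ± 0.19. Of 7 genes for the ATP synthase inhibitor and the exchange of ATP 4 were lower in each genotype and 1, 1 and 2 higher; Slc25a4, an ADP/ATP carrier, rose by 0.53, 1.02 and 0.75, each ± 0.05. Among 9 subunits and carriers outside the naming rule 3, 4 and 5 were lower (33.3%, 44.4% and 55.6%) and 1, 0 and 1 higher. Ndufa4l2, a relative of Ndufa4 that the rule leaves out, fell by 3.02 ± 0.17 in WT and 3.45 ± 0.19 in N22, and was at -0.59 ± 0.30 in KO22 (edgeR adjusted p = 0.108). Dhodh, which feeds electrons to ubiquinone from pyrimidine synthesis, fell by 1.16 ± 0.06, 0.64 ± 0.07 and 0.99 ± 0.07.

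**Figure D5:**
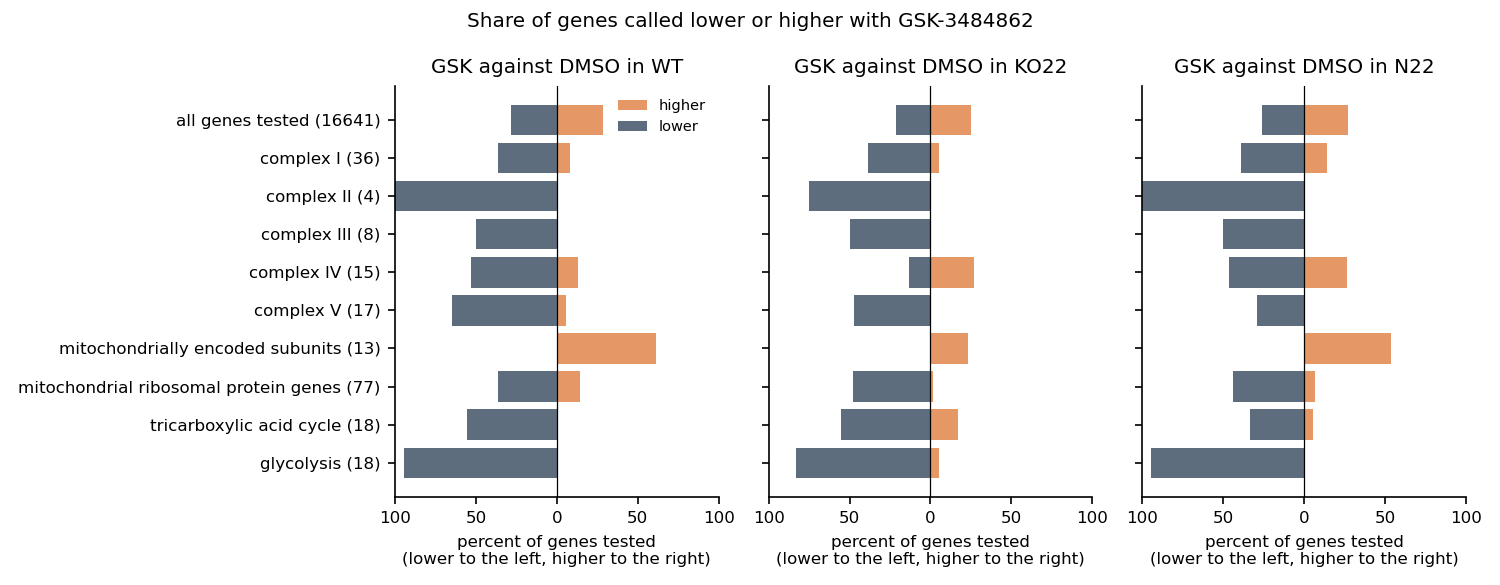
Percent of the tested genes of each list called lower (bars to the left) or higher (bars to the right) with GSK in WT, KO22 and N22. Of the glycolysis genes 94.4%, 83.3% and 94.4% were lower. Of the subunits encoded in mitochondrial DNA 61.5%, 23.1% and 53.8% were higher.

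Among the 14 genes lower in all 3 genotypes that have a promoter window, 5 (35.7%) held the ETS motif, 2 (14.3%) the NRF1 motif, 2 (14.3%) the YY1 motif and 1 the estrogen-related receptor motif, with a median of 24 CG pairs. Among the other 54 the counts were 11 (20.4%), 8 (14.8%), 8 (14.8%) and 1. These are counts of letters in few genes and were not tested.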

How the data were processed

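Total RNA (1 ug per library) was sequenced from 22 libraries. The deposited values are raw fragment counts per gene. Per the file headers the authors counted paired fragments over exons of Ensembl release 84 with featureCounts, without strand and without multi-mapping fragments. The submitters' processing notes name fastp 0.23.2, HISAT2 2.1.0, featureCounts 2.0.1, DESeq2 1.40.2 and GRCm38. Every file held 47729 genes.

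Genes were named with GENCODE M21. The genes, the lists and the tests were chosen with earlier results of these data known. The untreated (10 libraries) and treated (12 libraries) sets were fitted apart with all their groups in edgeR 4.0.16 (R 4.3.3; filterByExpr with a minimum count of 10, TMM, quasi-likelihood test, Benjamini-Hochberg adjustment over all genes tested, threshold 0.05). The fits kept 14796 and 16641 genes, with biological coefficients of variation of 0.208 and 0.0435. The programs were tested on simulated counts. Libraries of a group differed by more than sampling noise (chi-square per degree of freedom 2.72 to 58.5), so none was counted as the same library sequenced again. The pairs of the treated set were at 2.72 to 3.37, and the highest values were between different clones. This measure cannot tell separate cultures from technical repeats.

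Named genes were the core or catalytic subunits, the tissue-restricted isoforms with their partners, up to 2 called genes per complex and direction in each comparison, the 5 largest changes in each response, and up to 2 genes per list. Alternative settings were RLE factors, DESeq2 1.42.0, each library left out, offsets for length and GC content, no filter on low counts, a fit of the compared groups alone, and the replicate block. Leaving out libraries by their share of counts on chromosome 6, and leaving out genes on it, were chosen after seeing the data.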

Additional observations from a re-analysis of the deposited data

Results flagged for a closer look

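Among the 84 values screened in the 4 untreated Dux n=1 libraries (each gene and their sum), 3 had 1 library far from the others, and chance gives about 1 in 20. Ndufa2 was at 44.99 CPM in clone 31 against 48.2 to 48.43 in the others. Ndufa5, on chromosome 6, was at 58.91 CPM in clone 40 against 36.49 to 39.42. Cox6b2 was at 34.43 CPM in clone 22 against 10.84 to 11.96.

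The response to GSK differed between KO22 and WT, by the edgeR test of the difference itself, for 17 genes (log2, KO22 minus WT). It was lower in KO22 for Ndufa5 (-0.434), Atp5g1 (-0.311), Ndufb10 (-0.282), Ndufa8 (-0.266) and Atp5g3 (-0.152). It was higher for Atp5b (0.17), Cox6a1 (0.175), Atp5a1 (0.195), Cox5b (0.236), Sdhc (0.257), Uqcrb (0.284), Ndufa13 (0.299), Cox7a2l (0.349), Ndufa7 (0.372), Ndufb4 (0.387), Cox6b2 (0.876) and Atp5s (0.973). The response of N22 differed from that of WT for 8 genes: Ndufb10 (-0.249), Atp5b (0.124), Atp5a1 (0.159), Cox7a2l (0.237), Ndufb11 (0.277), Ndufa13 (0.293), Uqcrb (0.34) and Cox6b2 (0.466). Both sets of differences share the WT libraries.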

How the results depend on the processing

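Of 184 called results on single genes, 102 kept their call in every alternative other than those added after seeing the data. Over 3460 alternative values 3091 kept direction and call, 365 lost the call (239 of these with a library left out, 46 by DESeq2, 28 with no filter and 25 with a GC offset) and 4 reversed. The 4 arose with the GC offset: Cox8a in KO22 with GSK (-0.033), Cox6a1 in the KO22 minus WT response (-0.059) and in KO22 against WT with DMSO (0.059), and Cox7c in Dux-KO against E14 (0.315); the cause was not tested. The number of genes called moved by over 1.5 times for the N22 minus WT response (4 with no filter, 2 by DESeq2), KO22 against WT with DMSO (21 by DESeq2), N22 against WT with DMSO (5 by DESeq2), Dux-KO against E14 (4 with no filter, 5 with the GC offset) and Dux n=1 against E14 (1 with no filter, 13 by DESeq2, 8 with only the compared groups). The summed CPM ratio of GSK to DMSO was -0.175 in WT and -0.093 in N22 with TMM library sizes, and -0.096 and -0.032 without mitochondrially encoded genes in the total. Leaving out 1 library at a time gave 41 to 46 genes in the WT response, 26 to 38 in KO22, 28 to 43 in N22, 14 to 21 and 4 to 8 in the differences of KO22 and N22 from WT, 23 to 34 and 4 to 12 in KO22 and N22 against WT with DMSO, 1 to 12 in Dux-KO and 0 to 12 in Dux n=1 against E14, and 0 to 0 between them. The summed ratios then ran from -0.123 to -0.103 in WT, -0.096 to -0.05 in KO22 and -0.057 to -0.033 in N22. Alternatives added after seeing the data gave 0 (Dux-KO) and 9 (Dux n=1) genes against E14 without the 3 libraries high on chromosome 6. Without Dux-KO 22 and Dux n=1 40 they gave 9, 7 and, for Dux n=1 against Dux-KO, 3 genes, all on chromosome 6. Same-numbered libraries did not deviate together (correlations from -0.016 to 0.028). With the replicate block 46, 37 and 46 genes were called in the WT, KO22 and N22 responses, 19 and 8 in the differences, and 34 and 12 in the DMSO comparisons. Counts under the alternatives in this section are of respiratory chain genes alone, without the share of all genes called in the same fit. Genes at a few counts, such as Cox8b, are limited by depth.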
